A study of Mus musculus with 8 samples.

Results

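Genes of the antioxidant defence were examined in islets of aged mice with and without an induced deletion of Igf1r in β-cells. The set consists of 36 genes of the thioredoxin, peroxiredoxin, glutathione, superoxide dismutase, catalase and NRF2 systems, named by symbol and matched to Ensembl identifiers among the 53012 genes counted. All 36 were found and all 36 had enough reads to be tested among 15474 genes in all. RNA was sequenced from bulk islets, with a separate library for each of 8 mice aged 17 months. The 4 βIgf1rKD mice (M145, M146, M149 and M150) were Ins1-CreERT2+/- Igf1r flox/flox and received tamoxifen in corn oil, 0.075 mg/g body weight, in 5 daily intraperitoneal injections, and the 4 βIgf1r controls (M148, M151, M152 and M153) were Ins1-CreERT2-/- Igf1r flox/flox and received corn oil. Both groups thus carried the floxed allele, islets were taken 7 days after the last injection, and each group held males and females that the labels do not tell apart mouse by mouse. A rat insulin promoter drove the tamoxifen-inducible Cre, so the deletion concerned β-cells, whereas the RNA came from every cell of the preparation. The controls had neither Cre nor tamoxifen, so the effects of Cre, of tamoxifen and of the loss of Igf1r cannot be told apart.

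Superoxide formed in mitochondria and elsewhere is turned into hydrogen peroxide by superoxide dismutases. The peroxide is removed by catalase, by the peroxiredoxins and by the glutathione peroxidases. Most peroxiredoxins take electrons from thioredoxin, and glutathione peroxidases such as Gpx1 and Gpx4 take them from glutathione. The transcription factor NRF2 (gene Nfe2l2), held down by KEAP1, drives many of these genes when oxidants or electrophiles are present. Rodent β-cells are known for low catalase and glutathione peroxidase activity and for high amounts of TXNIP, a glucose-induced protein that binds and inhibits thioredoxin.

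In these islets the set differed little between the groups. Of the 36 genes, 21 had a higher and 15 a lower level in βIgf1rKD islets, that is 58.3% higher against 52.3% of all 15474 genes tested, and the median log2 fold change was 0.02 beside 0.01 over all genes. By edgeR's quasi-likelihood test 1 gene, the NRF2 target Nqo1, had an unadjusted p under 0.05, or 2.78% of the set against 4.12% of all genes tested (2.23% higher and 1.89% lower in βIgf1rKD islets). After Benjamini-Hochberg adjustment 0 genes of the set passed 0.05 (smallest adjusted p 0.987), as did 0.0% of all genes, of which 637 had an unadjusted p under 0.05. DESeq2 called 8 and limma-voom 1 of all genes at an adjusted p under 0.05, and neither called a gene of the set. In 0 of the 36 genes did the 4 βIgf1rKD mice lie wholly apart from the 4 βIgf1r mice, against 2.22% of all genes tested. The log2 fold change was smaller than its own standard error in 26 of the 36 genes (72.2%) and in 65.5% of all genes tested. The largest differences, which did not pass the adjusted threshold, were a log2 fold change of -1.12 for Txnip and of 0.64 for Slc7a11.

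Total counts per mouse lay between 21634080 and 42391328. The preparations differed in what surrounded the β-cells. Transcripts of 14 acinar genes, among them the digestive enzymes Amy2a5, Cpa1 and Pnlip, took 2.57%, 4.40%, 18.7% and 11.4% of the counts in βIgf1r mice M148, M151, M152 and M153, and 18.8%, 5.38%, 20.999% and 14.8% in βIgf1rKD mice M145, M146, M149 and M150. All 14 were present in every mouse and had a log2 fold change above 0, with an unadjusted p under 0.05 for 0 of them. The 10 β-cell markers, Ins1, Ins2 and Mafa among them, were also present in every mouse and took 10.2% to 22.5% of the counts. Of these 10, 4 were higher and 6 lower, with a median log2 fold change of -0.07. Ins1 was the 1 with an unadjusted p under 0.05, at 41092 CPM on average in βIgf1r and 21699 CPM in βIgf1rKD islets (log2 fold change -0.92, standard error 0.33, edgeR adjusted p = 0.987) and without overlap between the groups. Ins2 was at 115610 and 109713 CPM, with overlap (log2 fold change -0.08, standard error 0.41). Of the endothelial markers all 10 tested were lower, 5 with an unadjusted p under 0.05 and 4 without overlap between the groups. Of the macrophage markers 10 of 11 were higher, 3 with an unadjusted p under 0.05 and 0 without overlap. Over all genes tested 1.89% were lower and 2.23% higher at that threshold, and 2.22% were without overlap. At an adjusted p under 0.05 there were 0 genes of either list. In bulk RNA, fewer cells of a type and less RNA per cell cannot be told apart. Igf1r itself, counted over the whole gene and therefore no check of the deleted exon, was at 53.6 ± 7.21 CPM in βIgf1r and 50.7 ± 4.996 CPM in βIgf1rKD islets (SD, n = 4 each). Its log2 fold change was -0.08 (standard error 0.11; edgeR unadjusted p = 0.483, adjusted p = 0.988).

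Levels were compared between genes as CPM, the counts scaled to library size, divided by the median length of the gene's protein-coding transcripts in kilobases (CPM per kilobase, mean over the 8 mice). The cytosolic superoxide dismutase Sod1 (197 CPM per kilobase), the secreted glutathione peroxidase Gpx3 (192) and Txnip (186) stood highest, followed by Gpx4 (83.2), Prdx1 (77.1), Prdx6 (70.9), Gpx1 (70.5) and Prdx5 (69.8). These neighbours overlapped in level among the mice. At the other end lay the cystine transporter Slc7a11 (0.249), the extracellular Sod3 (0.523), Gpx7 (1.22), Gpx8 (1.57), the mitochondrial Txnrd2 (2.18) and Nqo1 (2.90). The peroxide-removing enzyme catalase (Cat) was at 6.31 CPM per kilobase, below each of the 6 peroxiredoxins and below Gpx1, Gpx3 and Gpx4. These ranks depended on the length used. Over the union of all annotated exons Sod1 was at 31.8 CPM per kilobase, and Gpx3 (169) and Txnip (167) then led. At the low end Glrx2 went from 18.8 to 1.98 and Msra from 8.82 to 2.42, both then below Nqo1 (2.90 by either length). Slc7a11 stayed lowest, at 0.104.

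**Figure D1:**
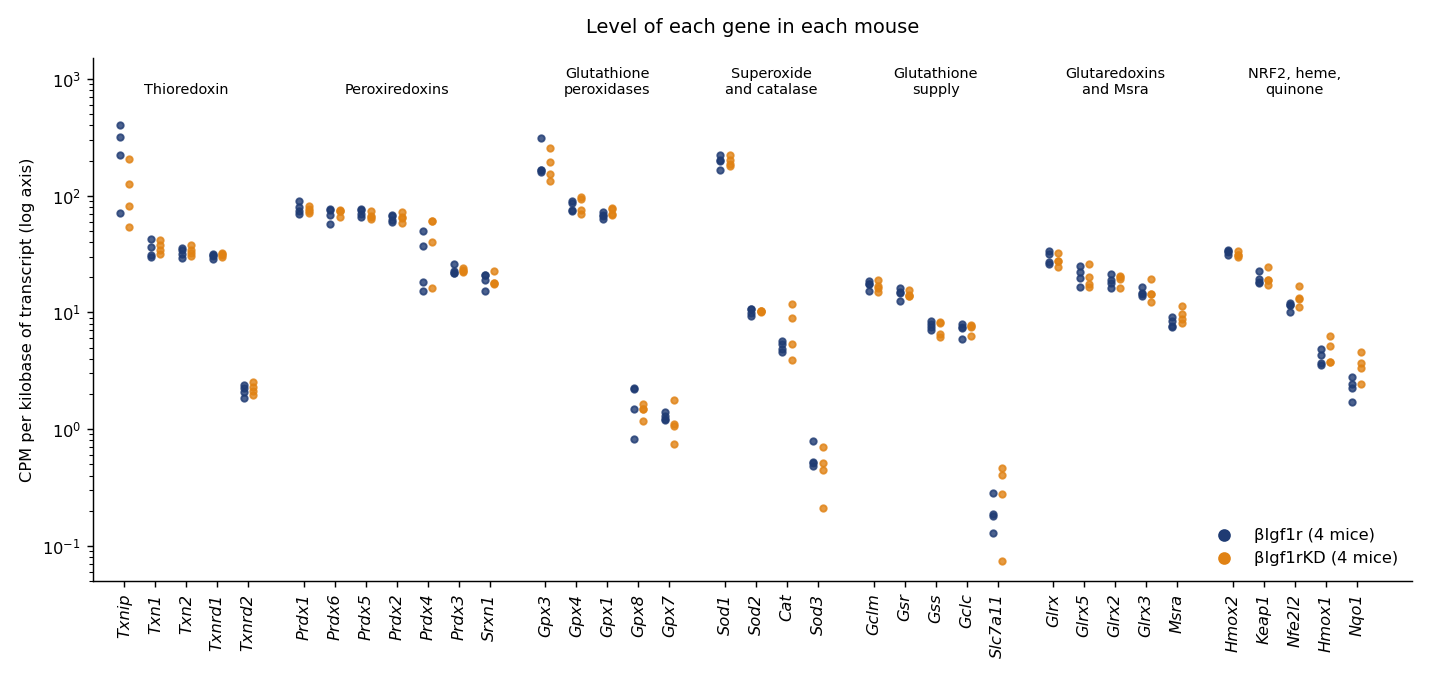
Level of the 36 genes in each mouse, grouped by role, in CPM per kilobase of transcript on a log axis; each point is 1 mouse, dark blue for βIgf1r and orange for βIgf1rKD. Sod1, Gpx3 and Txnip stood highest and Slc7a11 lowest, and the points of the 2 groups overlapped for every gene.

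The thioredoxin system holds thioredoxin in the cytosol (Txn1) and in mitochondria (Txn2), the reductases Txnrd1 and Txnrd2 that recharge them from NADPH, and the inhibitor Txnip. Txnip (ENSMUSG00000038393, chr3:96557957-96561883, plus strand of GRCm38) is best known in β-cells as a target of the glucose-sensing factor ChREBP, which binds paired E-boxes named carbohydrate response elements. The promoter stretch from RefSeq (GRCm38.p6, chr3:96557842-96557918, plus strand) is shown because Txnip was the gene of the set that differed most, with the carbohydrate response element in capitals, at 85 to 69 bases before the start:
Txnip promoter: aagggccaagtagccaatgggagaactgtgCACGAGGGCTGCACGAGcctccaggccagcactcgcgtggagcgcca
The motif searched on both strands, 2 copies of CACGNG with any 5 bases between them, was found in 16 of 32851 promoters (0.0487%) and, of the 30 genes of the set with a promoter in that table, in Txnip alone. A match describes letters and not binding.

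Txnip was at 1138, 202, 625 and 899 CPM in βIgf1r mice M148, M151, M152 and M153 and at 578, 150.8, 355 and 231 CPM in βIgf1rKD mice M145, M146, M149 and M150. The groups overlapped: M151 of the controls lay below 3 of the βIgf1rKD mice, while M148, M152 and M153 lay above all 4. The log2 fold change was -1.12 (standard error 0.53, 95% confidence interval -2.30 to 0.06; edgeR unadjusted p = 0.0603, adjusted p = 0.987; exact two-sided permutation test, p = 0.200). Txnip was also the most variable gene of the set. Its level spanned 7.54-fold over the 8 mice, and its standard deviation within groups was 0.98 on the log2 CPM scale, exceeded by 3.70% of the genes tested. Leaving out M151 gave -1.43 (edgeR unadjusted p 0.00821, adjusted p 0.980) and leaving out M145 gave -1.54 (unadjusted p 0.0198, adjusted p 0.971). With any 1 of the other mice left out the value lay between -1.18 and -0.81 and was not past an unadjusted p of 0.05.

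Thioredoxin itself showed no such spread. Txn1 (chr4:57943373-57956411, minus strand) was at 32.8, 31.1, 44.8 and 38.3 CPM in the βIgf1r mice, in the same order of mice, and at 35.7, 39.8, 43.7 and 33.2 CPM in the βIgf1rKD mice. Its log2 fold change was 0.05 (standard error 0.13). Within a library, the log2 ratio of Txnip to Txn1 counts was 4.04 ± 1.05 in the controls and 2.94 ± 0.86 in the βIgf1rKD mice (SD, n = 4 each). Their difference was -1.10 (standard error 0.68; exact two-sided permutation test, p = 0.200, and p = 0.600 once corrected for the 3 ratios computed). Txn2, Txnrd1 and Txnrd2 had log2 fold changes of 0.04 to 0.05. Txnrd1, at 97.7 to 109.8 CPM over all 8 mice, was the steadiest gene of the set, with a within-group standard deviation of 0.058 on the log2 CPM scale, and 98.9% of all genes tested varied more.

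**Figure D2:**
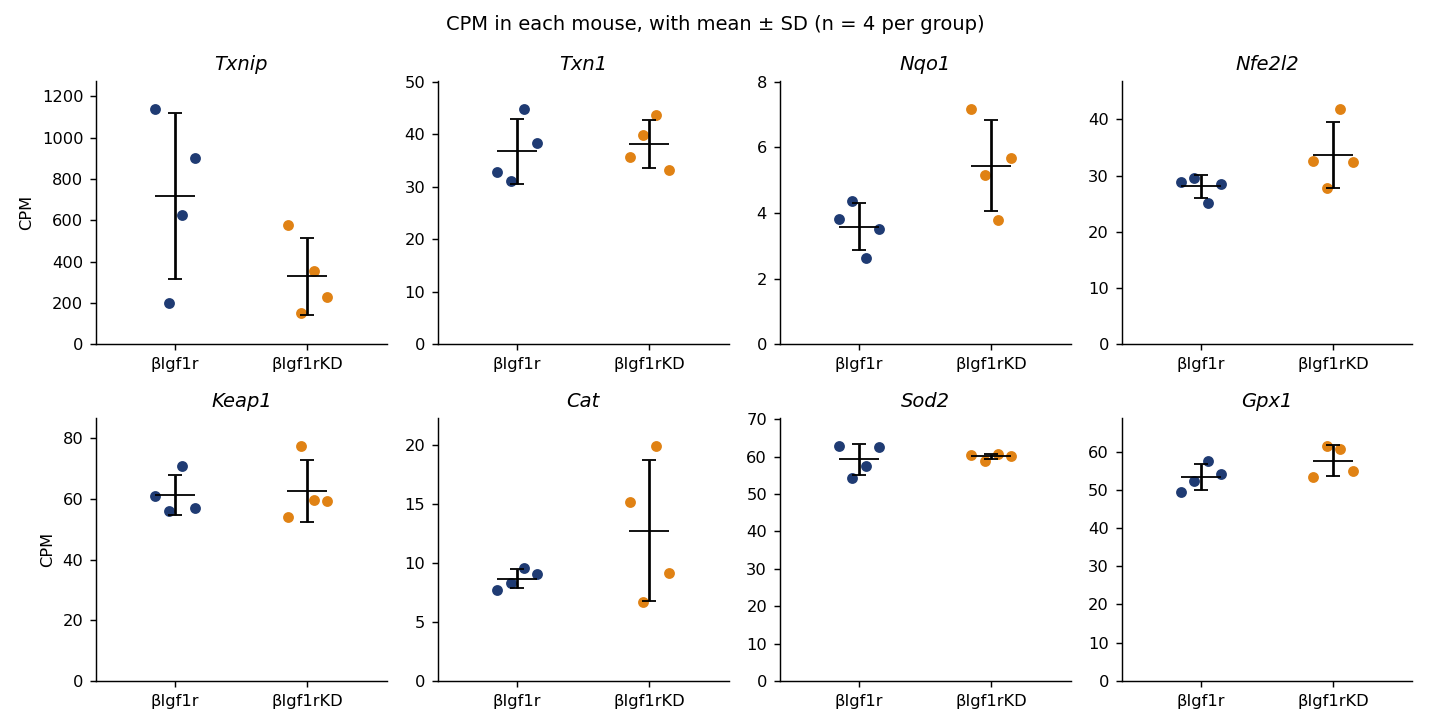
CPM of 8 genes in each mouse, with a linear axis from 0 for each gene; points are mice, and the horizontal mark and bar give the mean and SD of the 4 mice of a group. Txnip spread from 150.8 to 1138 CPM with overlapping groups, 3 of the 4 βIgf1rKD mice lay above all controls for Nqo1 and for Nfe2l2, and Txn1, Keap1, Sod2 and Gpx1 had similar means in both groups.

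The peroxiredoxins are thiol peroxidases of the cytosol (Prdx1, Prdx2, Prdx6), of mitochondria (Prdx3), of several compartments (Prdx5) and of the endoplasmic reticulum (Prdx4). Sulfiredoxin (Srxn1) repairs some of them once over-oxidized. Of these 7 genes 3 were higher and 4 lower, and 0 had an unadjusted p under 0.05. All but Prdx4 had log2 fold changes between -0.09 and 0.05. Prdx1, the highest of them, was at 124.6 ± 14.3 CPM in βIgf1r and 119.8 ± 6.63 CPM in βIgf1rKD islets (SD, n = 4 each). Prdx3 was at 34.0 ± 2.95 CPM and 33.9 ± 1.09 CPM (SD, n = 4 each).

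Prdx4 (chrX:155323918-155340754, minus strand), which uses peroxide in the endoplasmic reticulum to form disulfide bonds in secretory proteins, was the exception. It was at 14.96, 18.0, 49.5 and 36.6 CPM in βIgf1r mice M148, M151, M152 and M153 and at 59.7, 16.2, 60.1 and 40.1 CPM in βIgf1rKD mice M145, M146, M149 and M150. Mice of both groups were found at both ends of this 4.02-fold range. This was a log2 fold change of 0.56 (standard error 0.46, edgeR unadjusted p = 0.2496). The low mice M148, M151 and M146 were those with the lowest share of acinar transcripts (2.57%, 4.40% and 5.38%), and the high mice M145 and M149 those with the highest (18.8% and 20.999%). In an edgeR fit with group and the mean log2 CPM of the 14 acinar markers, chosen after the data were examined, Prdx4 changed by 0.67 on the log2 scale for each log2 unit of the acinar score (standard error 0.05, adjusted p = 0.000239), and 1.09% of all genes passed an adjusted p of 0.05 in that fit. With each mouse left out in turn the value lay between 0.59 and 0.73, with adjusted p from 0.000596 to 0.00179. In the same fit the difference between the groups was -0.15 (standard error 0.13). No other gene of the set passed the adjusted threshold for the acinar score.

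The glutathione peroxidases differ in the residue at the active site. In Gpx1, Gpx3 and Gpx4 it is selenocysteine, read from a TGA codon that would otherwise end translation, and in Gpx7 and Gpx8, which work in the endoplasmic reticulum, it is cysteine. The coding sequences around that codon, in capitals, are shown for the 5 genes with 18 bases on either side, taken from the GENCODE M21 transcripts (Gpx1-201 at chr9:108338903-108340343, codon 47; Gpx3-201 at chr11:54902453-54910377, codon 73; Gpx4-201 at chr10:80047166-80056439, codon 129; Gpx7-201 at chr4:108400390-108406961, codon 56; Gpx8-201 at chr13:113042753-113046410, codon 79), because the 2 kinds also differed in level. The end of the Txnrd1-201 coding sequence (chr10:82833951-82897712), whose selenocysteine is the last residue but 1, is added:
Gpx1: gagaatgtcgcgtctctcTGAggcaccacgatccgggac
Gpx3: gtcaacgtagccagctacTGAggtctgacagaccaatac
Gpx4: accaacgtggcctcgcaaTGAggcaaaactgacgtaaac
Gpx7: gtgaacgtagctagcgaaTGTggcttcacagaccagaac
Gpx8: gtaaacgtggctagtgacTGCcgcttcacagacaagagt
Txnrd1: atcctccagtctggctgcTGAggt
The 3 genes with TGA stood at 70.5 to 192 CPM per kilobase, and the 2 with a cysteine codon at 1.22 and 1.57.

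Between the groups, 2 of these 5 peroxidases were higher and 3 lower, and 0 had an unadjusted p under 0.05. Gpx1, of cytosol and mitochondria, was at 49.5, 52.2, 57.5 and 54.2 CPM in the βIgf1r mice and at 53.5, 61.5, 60.7 and 54.9 CPM in the βIgf1rKD mice. The groups overlapped, and the log2 fold change was 0.11 (standard error 0.08, 95% confidence interval -0.06 to 0.28). Gpx4, which reduces lipid peroxides in membranes, was at 71.5, 72.9, 83.6 and 85.7 CPM against 67.4, 94.4, 90.2 and 72.8 CPM (log2 fold change 0.05, standard error 0.12). Gpx7 had 13 to 43 counts and Gpx8 21 to 56 counts per mouse, and their log2 fold changes of -0.13 and -0.21 had standard errors of 0.28 and 0.32.

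Gpx3 was at 263, 493, 252 and 264 CPM in βIgf1r mice M148, M151, M152 and M153 and at 308, 244, 215 and 408 CPM in βIgf1rKD mice M145, M146, M149 and M150. One mouse of each group stood out, M151 and M150. The same 2 mice had the most Gcg, the α-cell gene for glucagon, at 38220 and 28956 CPM beside 11938 to 21989 CPM in the other 6. They also had the most of the PP-cell gene Ppy (3580 and 2973 CPM) and of the δ-cell marker Rbp4 (134.6 and 113.6 CPM). The δ-cell gene Sst was highest in M151 (3272 CPM), but M152 (2771 CPM) lay above M150 (2459 CPM). These comparisons were made after the values were seen, and the part of these cells in the level of Gpx3 was not tested. With all mice the log2 fold change of Gpx3 was -0.12 (standard error 0.27), and without M151 it was 0.18.

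**Figure D3:**
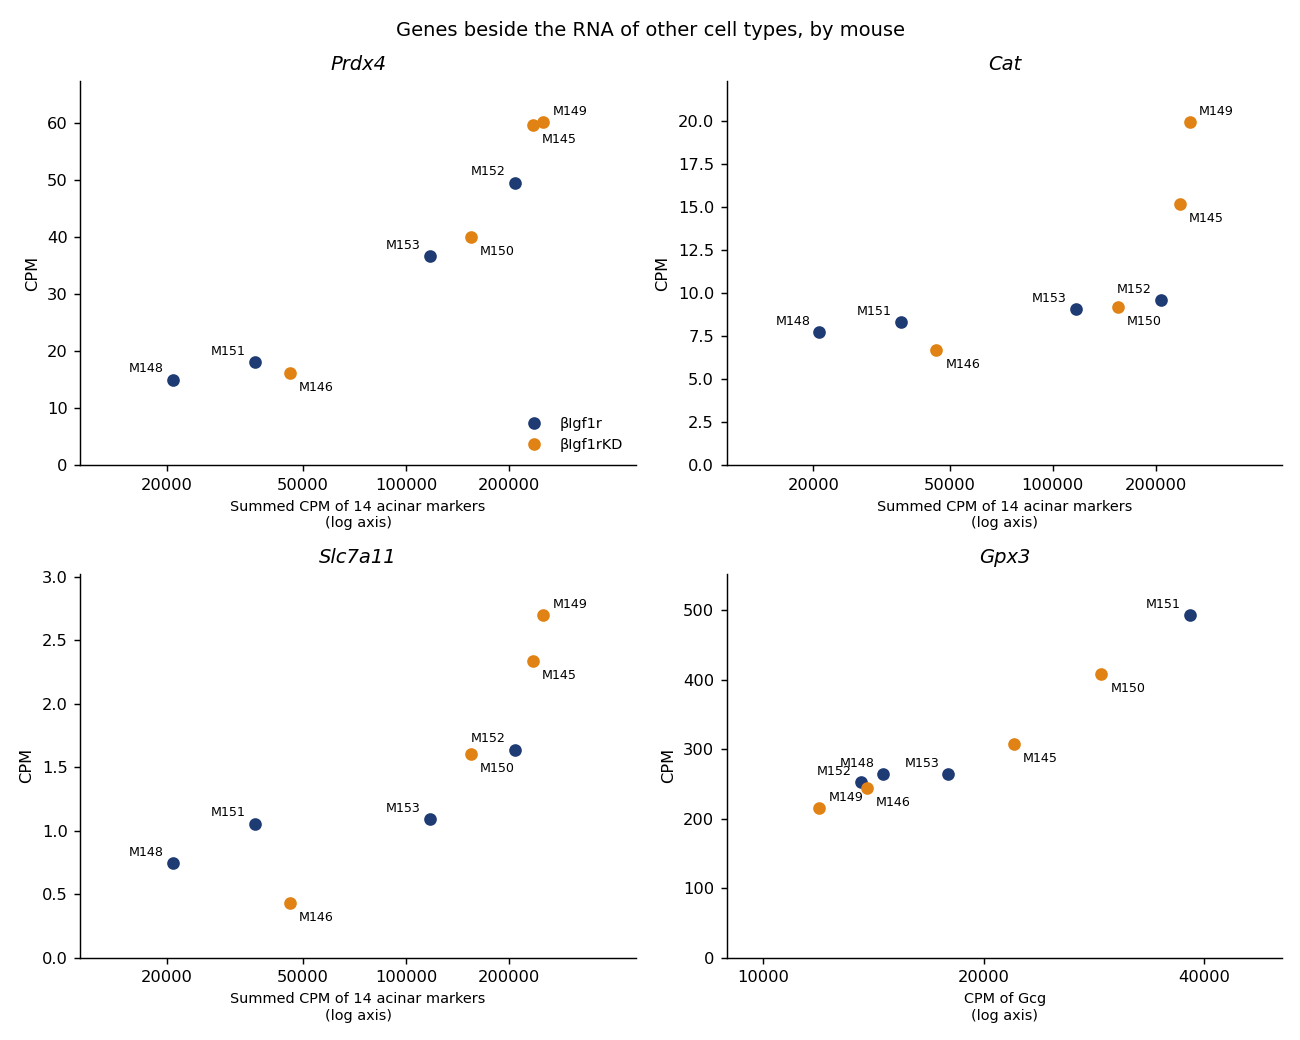
CPM of Prdx4, Cat and Slc7a11 in each mouse against the summed CPM of 14 acinar markers, and of Gpx3 against the CPM of Gcg (x axes in CPM on a log scale; y axes linear from 0); each point is 1 mouse, dark blue for βIgf1r and orange for βIgf1rKD. Prdx4 lay at 14.96 to 18.0 CPM in the 3 mice with the least acinar RNA and at 36.6 to 60.1 CPM in the other 5, in both groups alike, and Gpx3 was highest in M151 and M150.

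Of the superoxide dismutases and catalase, 3 were higher and 1 lower, and 0 had an unadjusted p under 0.05. Sod1 (chr16:90220754-90226329, plus strand) was at 126, 106, 142 and 129.6 CPM in the βIgf1r mice and at 120.3, 142, 129 and 116 CPM in the βIgf1rKD mice. The difference, 0.01 on the log2 scale, was smaller than its standard error of 0.11. Sod2 of the mitochondrial matrix (chr17:13006846-13040063, plus strand) was at 62.9, 54.2, 57.5 and 62.5 CPM against 60.4, 58.9, 60.7 and 60.2 CPM. Its log2 fold change was 0.02 (95% confidence interval -0.13 to 0.17), and 96.7% of all genes tested varied more within groups. The log2 ratio of Sod2 to Sod1 counts differed by 0.01 between the groups (standard error 0.10; exact two-sided permutation test, p = 0.914). Sod3, which acts outside cells, was low, at 1.92, 2.98, 1.82 and 1.94 CPM in the βIgf1r and 1.92, 0.786, 2.61 and 1.68 CPM in the βIgf1rKD mice (log2 fold change -0.31, standard error 0.34).

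Catalase (chr2:103453849-103485160, minus strand), the peroxisomal enzyme that splits hydrogen peroxide, was at 7.72, 8.29, 9.58 and 9.05 CPM in βIgf1r mice M148, M151, M152 and M153 and at 15.2, 6.68, 19.9 and 9.17 CPM in βIgf1rKD mice M145, M146, M149 and M150. Only M145 and M149 lay above the control range, M150 lay within it and M146 below. By edgeR the log2 fold change was 0.55 (standard error 0.30; edgeR unadjusted p = 0.0924; exact two-sided permutation test, p = 0.343). M145 and M149 also had the highest acinar share, at 18.8% and 20.999%. The βIgf1r mouse M152 had nearly the share of M145, 18.7%, but Cat at 9.58 CPM. M149 had the highest summed level of 11 macrophage markers, all present in every mouse. It was 312 CPM against 147.7 to 212 CPM in the other βIgf1rKD and 129 to 182 CPM in the βIgf1r mice. M149 was also the highest mouse for the summed duct markers (303 CPM) and for the summed fibroblast and pericyte markers (370 CPM). No slope on those was fitted. With the acinar score in the fit the difference of Cat between the groups was 0.17 (standard error 0.29). Without M146 it was 0.76 (unadjusted p = 0.00926 and adjusted p = 0.807 by edgeR) and without M149 0.25. In edgeR fits with group and a marker score, the slope of Cat was 0.28 on the log2 scale per log2 unit of acinar score (standard error 0.11, unadjusted p = 0.0353, adjusted p = 0.958) and 0.68 per log2 unit of macrophage score (standard error 0.29, unadjusted p = 0.0489, adjusted p = 0.566), neither past the adjusted threshold.

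The genes of glutathione supply comprise the cystine transporter Slc7a11, both subunits of glutamate-cysteine ligase (Gclc, catalytic, and Gclm, modifier), which make the rate-limiting step of synthesis, glutathione synthetase (Gss) and glutathione reductase (Gsr). Here 2 were higher and 3 lower, and 0 had an unadjusted p under 0.05. Gclc (chr9:77754535-77794485, plus strand) was at 27.3, 25.7, 20.3 and 25.2 CPM in the βIgf1r and 26.1, 21.6, 26.7 and 25.8 CPM in the βIgf1rKD mice, and Gclm (chr3:122245557-122270732, plus strand) at 57.3, 57.7, 49.98 and 60.9 CPM and at 62.1, 49.4, 53.5 and 55.2 CPM. The log2 fold changes were 0.02 (standard error 0.11) and -0.04 (standard error 0.09), and the ratio of Gclc to Gclm counts differed by 0.07 on the log2 scale (standard error 0.08; exact two-sided permutation test, p = 0.457). Gss and Gsr had log2 fold changes of -0.09 and -0.02, both smaller than their standard errors.

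Slc7a11 (chr3:49892526-50443614, minus strand), which imports cystine in exchange for glutamate, had few reads, 12 to 65 counts per mouse. It was at 0.745, 1.05, 1.64 and 1.09 CPM in βIgf1r and at 2.34, 0.428, 2.70 and 1.603 CPM in βIgf1rKD mice, so that the βIgf1rKD mice held both the lowest and the highest values. The difference on the log2 scale was 0.64 (standard error 0.49, edgeR unadjusted p = 0.225). Without M146 it was 0.96 (edgeR unadjusted p = 0.0155, adjusted p = 0.807) and without M149 0.36, and with the acinar score in the fit it was -0.12 (standard error 0.43). The slope of Slc7a11 was 0.56 on the log2 scale per log2 unit of acinar score (standard error 0.17), with an edgeR unadjusted p of 0.0101 and an adjusted p of 0.443, and 4.42% of all genes had an unadjusted p under 0.05 for this score.

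Glutaredoxins use glutathione to reduce mixed disulfides (Glrx in the cytosol, Glrx2 in mitochondria) or handle iron-sulfur clusters (Glrx3 and Glrx5), and Msra repairs oxidized methionine. Of these 5 genes 3 were higher and 2 lower, and 0 had an unadjusted p under 0.05. The glutaredoxins had log2 fold changes between -0.08 and 0.04, each smaller than its standard error. Msra was at 9.61 ± 0.93 CPM in βIgf1r and 11.2 ± 1.64 CPM in βIgf1rKD islets (SD, n = 4 each). Its log2 fold change was 0.22 (standard error 0.13; edgeR unadjusted p = 0.117).

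NRF2 acts through antioxidant response elements with the core TGACNNNGC. In the RefSeq promoters, from 250 bases before to 50 after the start, this core was found on either strand in 4071 of 32851 promoters (12.4%) and in 6 of the 41 promoters that belong to 30 genes of the set, 1 each for Gclm, Nfe2l2, Prdx1, Sod1, Srxn1 and Txnrd1. Stretches of 3 promoters are shown (GRCm38.p6) because they belong to classical NRF2 targets, with the core, which lies on the opposite strand, in capitals:
Gclm, chr3:122245393-122245461: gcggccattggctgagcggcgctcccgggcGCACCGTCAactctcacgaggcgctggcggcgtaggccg
Prdx1, chr4:116685436-116685504: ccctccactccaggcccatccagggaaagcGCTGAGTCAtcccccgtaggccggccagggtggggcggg
Txnrd1, chr10:82859084-82859152: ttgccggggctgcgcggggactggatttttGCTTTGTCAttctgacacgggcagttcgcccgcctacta
Gclm, Prdx1 and Txnrd1 had log2 fold changes of -0.04, -0.06 and 0.04. Nqo1 held no match in this window.

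Of the 5 genes grouped with NRF2 here, namely Nfe2l2, its inhibitor Keap1, the quinone reductase Nqo1 and the heme oxygenases Hmox1 (inducible) and Hmox2 (constitutive), 4 were higher and 1 lower in βIgf1rKD islets, with a median log2 fold change of 0.20. Nqo1 (chr8:107388225-107403206, minus strand) was at 3.81, 4.37, 2.63 and 3.51 CPM in βIgf1r mice M148, M151, M152 and M153 and at 7.16, 5.14, 3.79 and 5.67 CPM in βIgf1rKD mice M145, M146, M149 and M150. Of the βIgf1rKD mice 3 lay above all controls, and M149 lay just below M148 and below M151. Its log2 fold change was 0.60 (standard error 0.22, 95% confidence interval 0.10 to 1.10; edgeR unadjusted p = 0.0230, adjusted p = 0.987; exact two-sided permutation test, p = 0.0857). It was 0.48 without M152, 0.45 without M145 and 0.58 without M150, and in these the unadjusted p was 0.0586, 0.0740 and 0.0502. With endothelial markers or Xist as a covariate it was 0.65 and 0.37, and the edgeR unadjusted p was 0.103 and 0.0786. With the acinar score in the fit it was 0.73 (edgeR unadjusted p = 0.0205). The summed endothelial markers were at 454 to 576 CPM in βIgf1r and 406 to 457 CPM in βIgf1rKD mice. A fit with that covariate therefore separates group from score poorly.

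Nfe2l2 (chr2:75675513-75704641, minus strand) was at 28.9, 29.6, 25.2 and 28.5 CPM in the βIgf1r and 32.7, 27.7, 41.8 and 32.4 CPM in the βIgf1rKD mice. All but M146 lay above the controls, and M149 was highest. M149 had the most macrophage RNA, and also the highest summed duct markers (303 CPM) and fibroblast and pericyte markers (370 CPM). The part of these cells in the level of Nfe2l2 was not tested beyond the macrophage score below and the acinar score. The log2 fold change was 0.26 (standard error 0.12; edgeR unadjusted p = 0.0596; exact two-sided permutation test, p = 0.114). Without M146 it was 0.34 (edgeR unadjusted p = 0.0136, adjusted p = 0.807). In the fit with the macrophage score, added after the data were examined, the slope of Nfe2l2 was 0.35 on the log2 scale per log2 unit of score (standard error 0.10), with an unadjusted p of 0.00667 and an adjusted p of 0.324, and 8.76% of all genes had an unadjusted p under 0.05 there.

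Keap1 (chr9:21229730-21239361, minus strand) was at 60.9, 56.1, 70.8 and 57.1 CPM against 53.9, 77.5, 59.6 and 59.4 CPM (log2 fold change 0.03, standard error 0.12). Hmox1 (chr8:75093621-75100589, plus strand), which degrades heme, was at 7.61, 6.73, 5.77 and 5.55 CPM against 8.05, 5.89, 9.92 and 5.87 CPM (log2 fold change 0.20, standard error 0.19). The groups overlapped in both genes, with M146 above all controls for Keap1 and M145 and M149 above them for Hmox1. Hmox2 was at 45.7 ± 1.98 CPM and 43.7 ± 2.17 CPM (SD, n = 4 each).

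**Figure D4:**
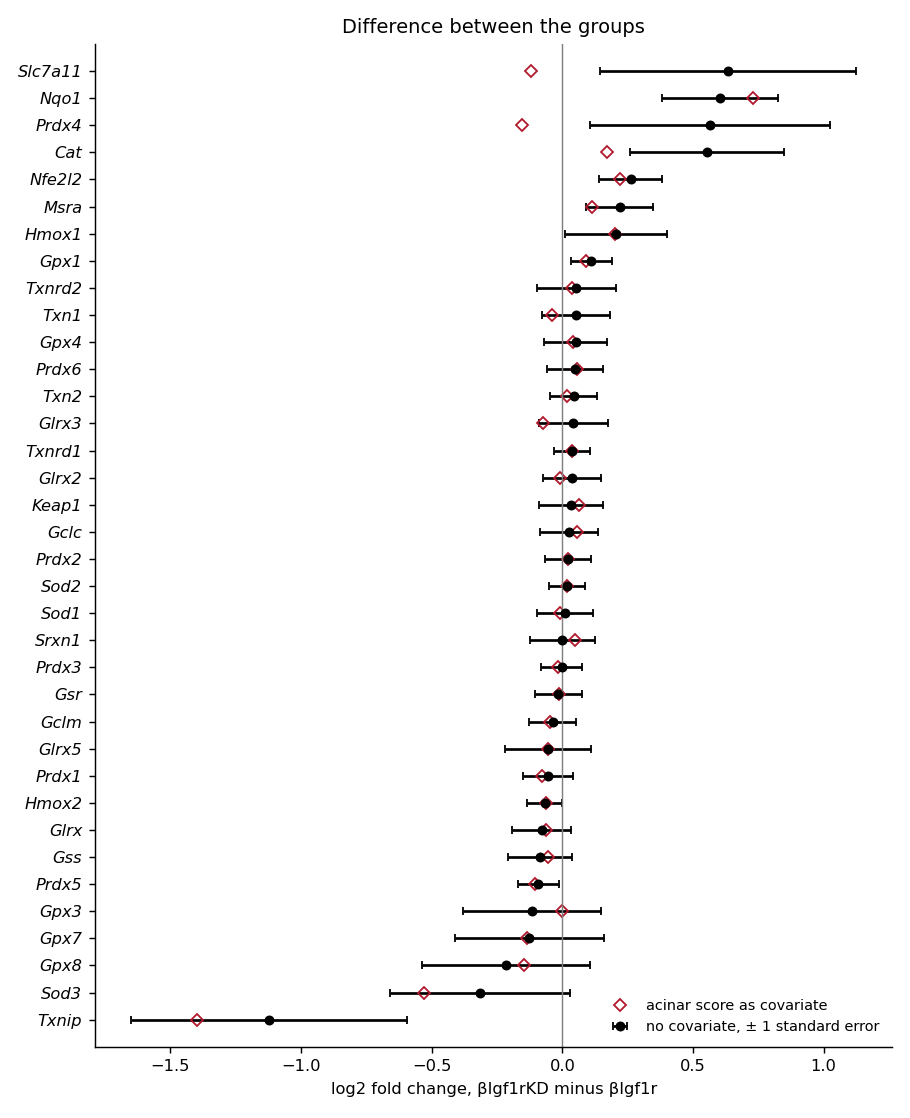
Log2 fold change of each of the 36 genes, βIgf1rKD minus βIgf1r, ordered by size; black points with bars give edgeR's estimate ± 1 standard error, and red diamonds the estimate with the acinar score as a covariate. The values ran from -1.12 for Txnip to 0.64 for Slc7a11, with 26 of 36 within 0.15 of 0; with the acinar score Prdx4 moved from 0.56 to -0.15, Slc7a11 from 0.64 to -0.12 and Cat from 0.55 to 0.17.

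Another 100 genes around these systems were listed by role, and 92 could be tested. Of these, 62 were higher (67.4%, beside 52.3% of all genes tested) and 30 lower. The median log2 fold change was 0.05, beside 0.01 over all genes. Of the 92, 1 higher and 2 lower genes had an unadjusted p under 0.05, or 3.26%, beside the 4.12% of all genes given above. Of 17 glutathione transferases, which conjugate electrophiles, 14 were higher and 3 lower, and the one past the unadjusted threshold was lower: Gstz1, at 99.1 ± 8.45 CPM in βIgf1r and 86.9 ± 4.25 CPM in βIgf1rKD islets (SD, n = 4 each; log2 fold change -0.19, standard error 0.08, edgeR adjusted p = 0.987). Of 14 partners and further targets of NRF2, 12 were higher and 2 lower, between -0.06 and 0.45, and 0 passed. The glutathione turnover genes were split 7 to 5, the genes of other redox proteins 14 to 13 and the superoxide sources 5 to 1, and 0 of these passed.

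Among 6 genes linked to Txnip, the relatives Arrdc2, Arrdc3 and Arrdc4 and the ChREBP family Mlxipl, Mlxip and Mlx, 2 were higher and 4 lower. Arrdc3, an arrestin-domain protein of the same family as Txnip, was at 35.6 ± 6.26 CPM in βIgf1r and 26.1 ± 3.39 CPM in βIgf1rKD islets (SD, n = 4 each). Its log2 fold change was -0.45 (standard error 0.14, edgeR unadjusted p = 0.0113, adjusted p = 0.987). Arrdc4, another target of ChREBP, differed by -0.28 on the log2 scale (standard error 0.14), and Mlxipl, which encodes ChREBP, by -0.09 (standard error 0.15).

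NADPH feeds both thioredoxin and glutathione reductases, and of 10 genes of its supply 8 were higher and 2 lower. G6pdx, the entry enzyme of the pentose phosphate pathway, was at 27.8 ± 2.03 CPM and 28.8 ± 1.67 CPM (SD, n = 4 each), a log2 fold change of 0.05 (standard error 0.08). The gene that passed the unadjusted threshold here was 1 of the 2 identifiers of Nnt, the mitochondrial transhydrogenase. ENSMUSG00000025453 was at 4.71 ± 1.36 CPM in βIgf1r and 7.995 ± 2.33 CPM in βIgf1rKD islets (SD, n = 4 each), a log2 fold change of 0.77 (standard error 0.26, edgeR unadjusted p = 0.0160, adjusted p = 0.987). The other identifier, ENSMUSG00000116207, went the other way, from 23.6 ± 3.23 to 20.6 ± 2.68 CPM. Since the estimated counts can be shared out between overlapping annotations, both were summed, which gave 28.3 ± 2.56 and 28.6 ± 1.40 CPM (SD, n = 4 each), a mean log2 difference of 0.02 (exact two-sided permutation test, p = 0.857).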

How the data were processed

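RNA-seq was performed on islets of 4 βIgf1r and 4 βIgf1rKD mice. The authors deposited estimated counts per Ensembl gene, unscaled, 1 column per mouse, from stranded mRNA libraries. Their processing notes name fastp, kallisto and GRCm38, and versions and annotation release are not given in the sources used here. The labels give the group and mouse number. Nothing was pooled, and libraries of 1 group differed by far more than sampling noise.

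Estimated counts were rounded, since 13.4% of values were not whole. Genes were filtered by edgeR 4.0.16 (filterByExpr, minimum count 10 in 4 mice, minimum total 15), scaled by TMM and compared by the quasi-likelihood test with Benjamini-Hochberg adjustment over all 15474 genes (R 4.3.3). CPM are TMM-scaled, and groups were called overlapping on log2 CPM with a prior count of 2. The threshold was 0.05, and with 4 against 4 mice the exact permutation test can give no p below 0.0286. Total counts from 21634080 per mouse leave little counting error except for low genes such as Slc7a11. Of the identifiers, 51906 were matched to a symbol. Coordinates and transcripts are those of GENCODE M21, joined by identifier, and promoters those of RefSeq on GRCm38.p6.

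The genes of the set and all lists were chosen with earlier results of these data known, so no list is independent support. Named in full were genes with an unadjusted p under 0.05, those without overlap, the 6 largest fold changes, the 4 highest levels per kilobase and genes fixed for their role. Of the other pathway genes, those with an unadjusted p under 0.05 and Nnt, Arrdc4 and G6pdx were named. Other values of single genes are given as examples or because of their size. Alternatives were RLE factors, DESeq2 1.42.0, limma-voom (limma 3.58.1), 2 other filters, acinar, endothelial and Xist covariates, leaving out each mouse and, for ratios, 0.5 added to each count. The macrophage covariate and the fits on marker scores were chosen after seeing the data. The edgeR comparison and the score fit were also run on simulated counts, drawn for each gene independently around a mean level shared by all mice. Apart from changes set for randomly chosen genes, those counts held no differences in cell content. They cannot show how the fits behave under such differences.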

Additional observations from a re-analysis of the deposited data

Results flagged for a closer look

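In 4 of 72 sets of 4 mice, 1 for each of the 36 genes and each group, a mouse lay far from the other 3, measured as its gap to the nearest mouse divided by the range of the group and set against Dixon's limit for 4 samples. About 3.6 such sets are given by chance alone, 1 in 20. Among the βIgf1r mice, M151 had the highest Gpx3, at a log2 CPM of 8.95 beside 7.98 to 8.05 (0.932 of the range), and the highest Sod3, at 1.61 beside 0.92 to 1.01 (0.864). M151 also had the highest levels of the α-cell gene Gcg (38220 CPM), the PP-cell gene Ppy (3580 CPM) and the δ-cell gene Sst (3272 CPM). The part of these cells in the values was not tested. Of the βIgf1r mice M151 also had the highest summed macrophage markers, 182 CPM. In the edgeR fit with group and the macrophage score, the slope of Sod3 was 0.99 (standard error 0.29, unadjusted p = 0.00861, adjusted p = 0.342). There, 8.76% of all genes had an unadjusted p under 0.05. Among the βIgf1rKD mice, M146 had the highest Srxn1, at a log2 CPM of 6.004 beside 5.63 to 5.66 (0.898), and the lowest Gclc, at 4.44 beside 4.69 to 4.74 (0.841). M146 had the lowest acinar share of its group. The edgeR slopes on the acinar score were -0.05 for Srxn1 (standard error 0.06) and -0.03 for Gclc (standard error 0.06), both smaller than their standard errors.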

How the results depend on the processing

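Over the 36 genes and their alternatives, 612 log2 fold changes were computed, of which 5, all of Nqo1, lost the unadjusted threshold of 0.05, 11 of 6 genes gained it and the others kept their side of it; 2 of those (Txnrd2 at -0.15 and Gclc at 0.23 with endothelial markers) moved by more than the spread between mice. The sign changed in 75 values of 24 genes, in 0 of them past the threshold, and 12 genes never changed sign. Without M146 Cat, Slc7a11, Nfe2l2 and Nqo1 passed, without M151 Txnip and Nqo1, without M145 Txnip, and without M152 or M150 no gene. The count of genes of the set with an unadjusted p under 0.05, 1 in the comparison above, was 3 without a filter (Txnip, Nfe2l2, Nqo1), 3 with Xist (Cat, Msra, Nfe2l2), 2 with macrophage markers (Nqo1, and Sod3 at -0.77), 0 with endothelial markers and 0 to 4 with a mouse left out. Over all genes the 637 became 1098 without a filter, 380 with acinar, 143 with endothelial markers, 1143 with Xist and 383 to 1114 with a mouse left out (383 without M148, 402 without M153, 960 without M146 and 1114 without M152), and the 0 at an adjusted p under 0.05 became 8 by DESeq2 and 1 by limma-voom. The 3 further pathway genes became 7 by DESeq2, 1 with acinar markers, 0 with endothelial markers, 11 with Xist and 2 to 11 with a mouse left out (8 without M151, 11 without M152, 10 without M146 and 7 without M150). The cause was not tested. The count of higher genes lay between 15 and 26 and the median log2 fold change between -0.02 and 0.05. No ratio passed its threshold under any alternative run. No paired analysis was possible because no mouse number occurs in both groups. With 12 to 65 counts, Slc7a11 was limited by depth, as were Gpx7, Gpx8 and Sod3.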

Other observations

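Among the further pathway genes, which were given above as counts, the selenoprotein genes Selenop and Selenot were abundant. Selenop, which encodes a secreted carrier of selenium, was at 459 ± 72.6 CPM in βIgf1r and 464 ± 100.4 CPM in βIgf1rKD islets (SD, n = 4 each), and Selenot, an oxidoreductase of the endoplasmic reticulum, at 265 ± 59.6 and 242 ± 47.7 CPM (SD, n = 4 each). Ero1b, which oxidizes protein disulfide isomerase in β-cells and passes electrons to oxygen, was at 1998 ± 320.0 and 2108 ± 192 CPM (SD, n = 4 each), a log2 fold change of 0.08 (standard error 0.18). The iron-storing ferritin genes Fth1 and Ftl1, both targets of NRF2, had log2 fold changes of 0.22 (standard error 0.12) and 0.28 (standard error 0.16) without passing the unadjusted threshold of edgeR. Ftl1 and Fth1 have many processed copies in the genome, between which estimated counts can be shared. Sesn1, Sesn2 and Sesn3, stress-induced regulators of peroxide metabolism, had log2 fold changes of -0.05, -0.03 and -0.07, each smaller than its standard error. These genes were picked for description after their values were seen.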
